A study of Mus musculus with 4 samples.

Results

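The HGF and MET axis comprised 7 genes, and all 7 were measured among the 18193 named genes of the arrays: the receptor Met, its ligand Hgf, the docking adaptor Gab1, the HGF-activating proteases Hgfac and St14, and the protease inhibitors Spint1 and Spint2. The members were taken by gene symbol, through every probe set (a group of short probes against 1 transcript) that the platform annotation gave that symbol alone, which yielded 13 probe sets. Each gene was represented by its brightest probe set, judged by the mean level on the 4 arrays. The pigment genes Dct and Tyr were set beside them.

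Expression was measured in cells sorted from B16 melanoma, a transplantable pigmented tumor line, grown in C57BL/6 mice that carried a multicolor Cre reporter. Tamoxifen turns on such a reporter, so that a labelled cell and its descendants share a color. The promoter that drove Cre and the time of tamoxifen are not given in the sources used here, and a color need not mark a single clone. Cells without CD45 and with CD31 and CD144, a gate for endothelium, were sorted 2 weeks after the tumor cells were injected. From either tumor (A or B), 1 array came from the color that was most frequent (expansion) and 1 from the color that was least frequent (extinction), so that each combination of clone class and tumor had 1 array and each class had 2. All 4 groups shared the strain, the tumor line and the gate, and no untreated or tumor-free endothelium was among them.

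HGF is secreted as a single inactive chain, mainly by mesenchymal cells, and becomes active once it is cut by serine proteases such as HGF activator (Hgfac) or matriptase (St14). The transmembrane Kunitz inhibitors HAI-1 (Spint1) and HAI-2 (Spint2) hold these proteases back. Active HGF dimerizes the receptor tyrosine kinase MET, which recruits GAB1 and turns on the ERK, PI3K and STAT3 pathways. In vessels HGF acts as an angiogenic factor, and in melanocytes MET is a known target of the transcription factors MITF and PAX3 and a receptor for a growth and migration signal.

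The promoters of Met and Spint2 are shown because these genes differed most between the arrays, and those of Dct and Tyr because they are the pigment genes set beside them. RefSeq promoters on GRCm38.p6, from 250 bases before to 50 after a gene's start, were matched by symbol for 6 of the 7 members and for both pigment genes. Capitals mark 4 motifs, searched on both strands: the E-box CACGTG, the M-box TCATGTG bound by MITF, the E-box CAGGTG bound by SNAIL and ZEB repressors, and the AP-1 motif TGANTCA. None of the 4 overlapped another in these windows.
Met, chr6:17463707-17464006, plus strand: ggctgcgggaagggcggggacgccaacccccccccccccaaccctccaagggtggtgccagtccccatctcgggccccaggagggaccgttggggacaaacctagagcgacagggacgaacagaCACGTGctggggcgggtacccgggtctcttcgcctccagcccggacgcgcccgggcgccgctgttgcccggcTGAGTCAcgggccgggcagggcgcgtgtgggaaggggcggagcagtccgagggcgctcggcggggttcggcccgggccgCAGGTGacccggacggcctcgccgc
Spint2, chr7:29281928-29282227, minus strand: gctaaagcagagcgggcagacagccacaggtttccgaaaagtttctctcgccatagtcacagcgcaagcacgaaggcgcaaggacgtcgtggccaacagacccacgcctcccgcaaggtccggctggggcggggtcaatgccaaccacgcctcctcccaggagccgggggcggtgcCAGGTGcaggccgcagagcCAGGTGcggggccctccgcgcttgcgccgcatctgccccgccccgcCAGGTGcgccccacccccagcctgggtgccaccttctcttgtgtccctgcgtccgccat
Dct, chr14:118052197-118052496, minus strand: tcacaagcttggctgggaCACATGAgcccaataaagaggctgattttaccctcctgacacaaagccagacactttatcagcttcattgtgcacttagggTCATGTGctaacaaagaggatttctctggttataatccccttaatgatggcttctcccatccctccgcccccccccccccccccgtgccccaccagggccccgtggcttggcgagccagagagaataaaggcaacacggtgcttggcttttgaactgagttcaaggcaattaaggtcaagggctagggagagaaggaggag
Tyr, chr7:87493463-87493762, minus strand: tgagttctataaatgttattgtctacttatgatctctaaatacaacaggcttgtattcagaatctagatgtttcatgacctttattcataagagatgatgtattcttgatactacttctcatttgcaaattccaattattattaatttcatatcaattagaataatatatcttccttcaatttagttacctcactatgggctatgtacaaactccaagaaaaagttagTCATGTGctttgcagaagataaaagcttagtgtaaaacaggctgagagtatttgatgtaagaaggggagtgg

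The Met window held 1 CACGTG, 1 AP-1 motif and 1 CAGGTG. The Spint2 window held 3 copies of CAGGTG, the Dct window 2 M-boxes and the Tyr window 1 M-box. Of the other members with a window, Spint1 held 1 AP-1 motif, Hgfac 2 copies of CAGGTG, and Hgf and Gab1 none of the 4. Over 32851 RefSeq promoter windows of that length, CACGTG was in 7.15%, the M-box in 3.77%, the AP-1 motif in 7.81% and CAGGTG in 20.2%, while 0.365% held 3 or more copies of CAGGTG. The windows differed in base composition, from 75.7% G and C at Met and 69.3% at Spint2 to 31.0% at Tyr, against a median of 52.7%. Such a match describes letters in the window and no binding was measured.

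Cell type marker levels differed between the arrays, and the results below are to be read beside them. All 10 melanoma and melanocyte markers listed for the check of cell types were 2-fold or more above extinction in the expansion array of tumor A, and 2-fold or more below it in that of tumor B. Their mean log2 level was 12.49 and 7.76 in the expansion and extinction arrays of tumor A and at 6.65 and 11.55 in those of tumor B. All 12 endothelial markers had the opposite signs, by 2-fold or more for 12 in tumor A and 11 in tumor B, at a mean of 7.98, 10.42, 10.85 and 8.99 in the same order. The gate's own genes were among them: Pecam1 (CD31) was at 6.16, 8.82, 8.61 and 6.90 and Cdh5 (CD144) at 8.69, 11.46, 11.51 and 9.80. The mean of 8 fibroblast markers lay between 11.71 and 13.32, that of 7 pericyte markers between 10.36 and 11.52, that of 7 leukocyte markers between 5.85 and 6.39 and that of 7 keratinocyte markers between 4.59 and 5.15. Ptprc (CD45), which the sort selected against, stayed between 3.63 and 4.27. Laptm5, Itgam and Cd3e ranged over 0.40, 0.27 and 0.37, and Coro1a over 1.06. The widest-ranging of the 7 leukocyte markers were Cd53 and Csf1r, whose tumor B minus tumor A differences had opposite signs (-1.68 and 1.03). Csf1r, a macrophage receptor, was at 8.11, 9.70, 9.91 and 9.97, and Cd53, a leukocyte tetraspanin, at 7.01, 8.19, 5.48 and 6.36. The mean of 3 adipocyte markers was 6.91, 7.36, 8.75 and 7.31, and Adipoq (adiponectin) was at 6.78 in expansion B against 3.75 to 3.78 elsewhere. The part of these markers in the results for HGF and MET genes was not tested. In bulk samples fewer cells of a type and less RNA per cell cannot be told apart. The precision is set by having 4 arrays.

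The receptor Met was the member that varied most. On the log2 scale its level was 13.41 and 9.29 in the expansion and extinction arrays of tumor A and at 8.001 and 13.17 in those of tumor B. It was thus high on 1 array of each class and 1 array of each tumor, and neither the classes nor the tumors separated. Within tumor A Met was 17.3-fold higher in expansion (4.11 on the log2 scale), and within tumor B it was 36.1-fold lower (-5.17). With 1 array per class in a tumor, these differences have no replicate error and were not tested. The order of its levels was expansion A, extinction B, extinction A and expansion B, the same order as that of the melanoma marker mean. The upper 2 arrays were 0.23 apart and the lower 2 were 1.29 apart, and no replicate of a combination exists against which to judge either gap.

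The pigment genes stood high and low on the same arrays. Both are also on the melanoma marker list, so they and its mean are not separate observations. Dct, which encodes dopachrome tautomerase, was at 14.36, 9.79, 7.62 and 13.84 in expansion A, extinction A, expansion B and extinction B. Tyr, which encodes tyrosinase, was at 11.85, 6.27, 4.296 and 10.55. In tumor A expansion exceeded extinction by 4.57 for Dct and 5.58 for Tyr, and in tumor B it lay below by 6.22 and 6.26, each a larger difference than that of Met in the same tumor. Between the 2 arrays with low pigment genes, extinction A lay above expansion B by 1.29 for Met, 2.17 for Dct and 1.98 for Tyr. Between the 2 arrays with high pigment genes, expansion A lay above extinction B by 0.23, 0.53 and 1.30.

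**Figure D1:**
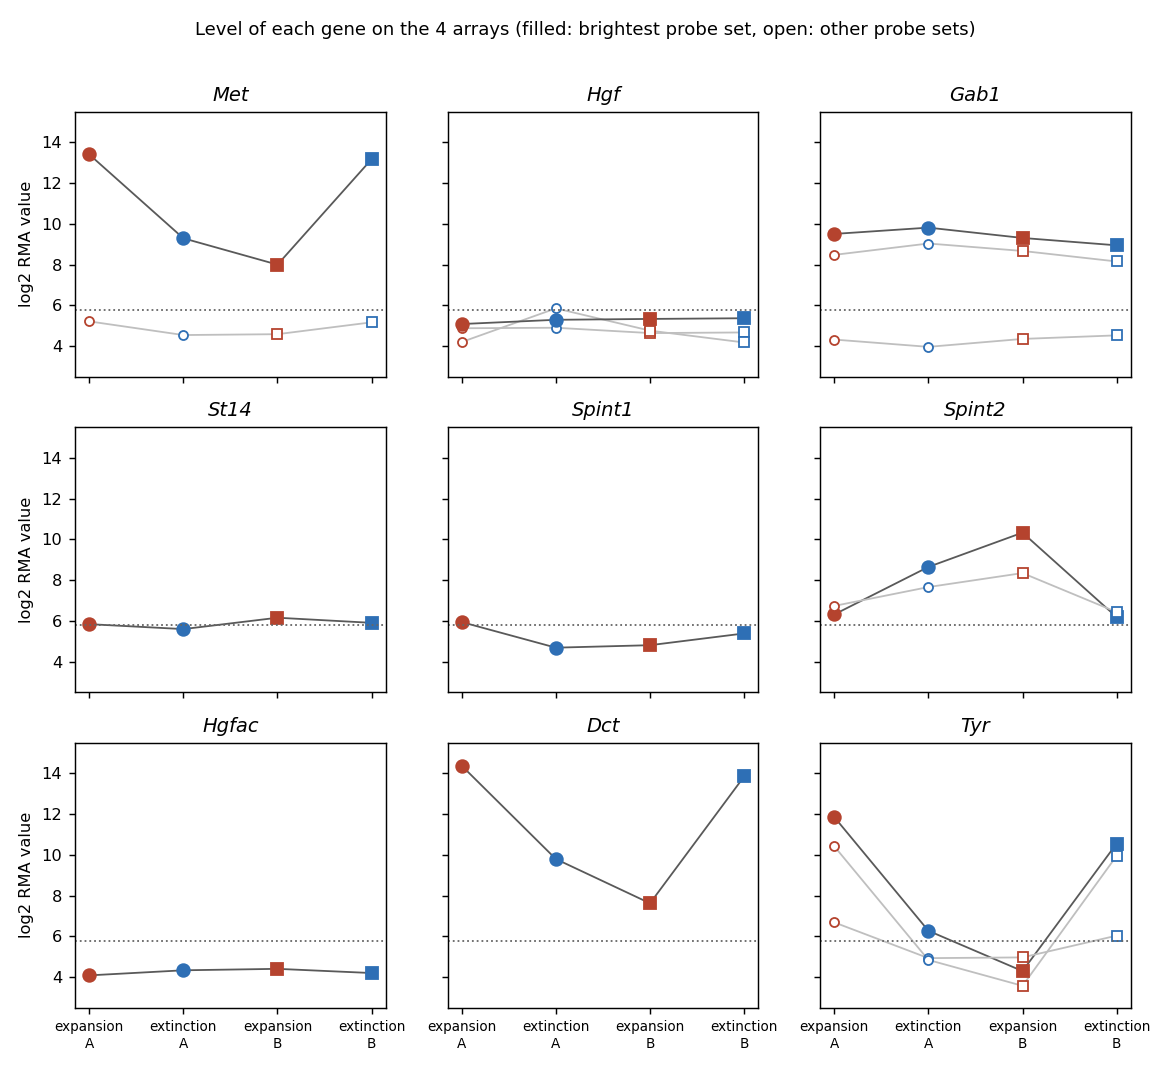
Log2 RMA values of the 7 HGF and MET genes and of Dct and Tyr on the 4 arrays; red points are expansion, blue points extinction, circles tumor A, squares tumor B, filled points the brightest probe set, open points the others, lines join values of 1 probe set, and the dotted line is the median of all probe sets, 5.78. Met, Dct and Tyr are high in expansion A and extinction B, Spint2 is high in extinction A and expansion B, and the brightest probe sets of Hgf and Hgfac lie below the dotted line on every array.

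Averaged over the tumors, expansion and extinction did not differ by more than their spread for Met. The expansion arrays averaged 10.70 ± 3.82 (SD, n = 2) and the extinction arrays 11.23 ± 2.74 (SD, n = 2). The difference was -0.53 ± 2.54 (SE; adjusted p = 1 by limma with Benjamini-Hochberg adjustment). It ran from -3.23 with expansion A left out to 2.17 with expansion B left out, and was 1.41 without the extinction array of tumor B, so its sign turned when either array of tumor B was left out. Tumor B minus tumor A was -0.76 ± 2.51 (SE; adjusted p = 1 by limma), again with overlap.

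A second Met probe set was dim, at 5.22 and 4.55 in the expansion and extinction arrays of tumor A and at 4.59 and 5.17 in those of tumor B, below the median of all probe sets throughout. Its differences had the same signs as those of the bright one, 0.67 in tumor A against -0.58 in tumor B. The difference in tumor A minus that in tumor B was 9.29 for the bright probe set and 1.25 for the dim one. With the mean of both in place of the brighter, it was 5.27.

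Set against all genes, Met ranked 34th of 18193 genes by the size of its clone difference in tumor A minus that in tumor B, where Tyr was the 2nd and Dct the 8th. The median size of this value over all genes was 0.54. By the smallest Euclidean distance between centred levels over the 4 arrays, the genes most like Met were Mreg (melanoregulin, a melanosome transport protein; distance 0.42), Rab27a (a GTPase of vesicle transport; 0.45), Rims2 (a presynaptic scaffold; 0.45), Nup210 (a nuclear pore protein; 0.48) and Tpd52l1 (0.49). Mreg, the nearest, was at 10.19, 5.63, 4.78 and 10.05 in expansion A, extinction A, expansion B and extinction B. Dct came 36th in that order, at a distance of 1.00, and Tyr 81st, at 1.56. Melanoma and endothelial marker levels also differ between these arrays, and their part in this likeness was not tested.

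The inhibitor Spint2 had the opposite pattern to Met. It was at 6.32 and 8.65 in the expansion and extinction arrays of tumor A and at 10.33 and 6.19 in those of tumor B. The arrays low in Met were those high in Spint2, and extinction A minus expansion B was -1.68. Spint2 was 5.03-fold lower in expansion within tumor A (-2.33) and 17.6-fold higher within tumor B (4.14), neither of them tested. Its second probe set gave 6.73, 7.66, 8.35 and 6.43 in the same order, with smaller differences of the same signs, -0.92 and 1.91. The brighter probe set is of the x_at type, whose probes can bind transcripts of other genes.

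The endothelial marker mean was likewise highest in expansion B and extinction A. Its lowest array was expansion A, and that of Spint2 was extinction B. For Spint2, expansion A and extinction B were 0.13 apart, and no replicate exists against which to judge that gap. The adipocyte marker mean, of 3 genes, was also highest in expansion B, at 8.75, and its part in the level of Spint2 was not tested. Of these genes, Adipoq differed by 0.018 in tumor A against 3.035 in tumor B and Lep by -0.0012 and 0.28. Fabp4 differed by -1.39 and 0.998, with the signs of all 12 endothelial markers. The expansion arrays averaged 8.32 ± 2.84 (SD, n = 2) for Spint2 and the extinction arrays 7.42 ± 1.74 (SD, n = 2), a difference of 0.91 ± 1.797 (SE; adjusted p = 1 by limma). Without the expansion array of tumor B the difference was -1.10, and without the extinction array of tumor B it was -0.32. Spint2 came 109th of 18193 genes by the size of its clone difference in tumor A minus that in tumor B (-6.47). The genes with the nearest levels were Rasgrf2 (a Ras exchange factor; distance 0.26), Tmigd1 (0.40), Ildr2 (0.42), Csf2rb2 (a cytokine receptor subunit; 0.44) and Cyp2d22 (a cytochrome P450; 0.65).

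Spint1, the paralogue of Spint2, went the other way and over a smaller range. It was at 5.94 and 4.69 in the expansion and extinction arrays of tumor A and at 4.81 and 5.39 in those of tumor B. Expansion A and extinction B, the arrays high in melanoma markers, were its higher ones. Expansion was 2.39-fold higher in tumor A (1.25) and 1.49-fold lower in tumor B (-0.58). Its mean lay below the median of all probe sets, and the difference over both tumors was 0.34 ± 0.53 (SE, n = 2 per class; adjusted p = 1 by limma). That value was -0.23 when the expansion array of tumor A was left out and -0.01 without the extinction array of tumor A. The keratinocyte marker mean was also highest in expansion A, at 5.15, though 6 of its 7 genes had a mean below the median of all probe sets. In sign, 4 of the 7 ran as Spint1 did and 3 were higher in expansion in both tumors. The genes nearest to Spint1 were Itgb3bp (distance 0.052), Plekhj1 (0.059), Epop (0.076), Clk2 (0.080) and Rapgef2 (0.082).

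**Figure D2:**
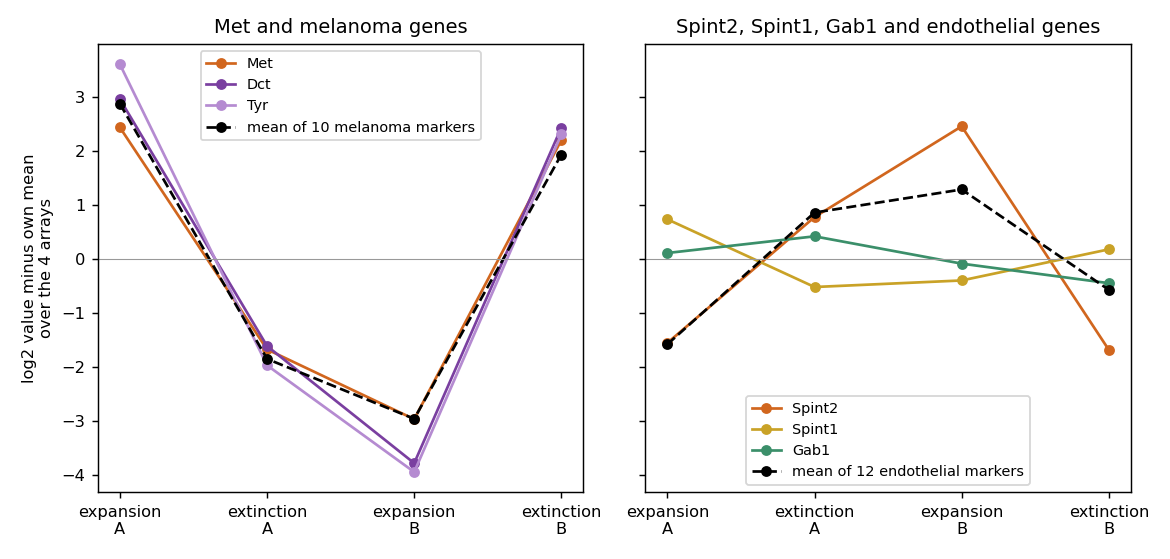
Log2 values minus each row's own mean over the 4 arrays, for Met, Dct, Tyr and the mean of 10 melanoma markers (left) and for Spint2, Spint1, Gab1 and the mean of 12 endothelial markers (right); lines join the values of 1 gene or list. Met follows Dct, Tyr and the melanoma mean, which includes Dct and Tyr, on each array, and Spint2 peaks in expansion B.

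The ligand Hgf varied little. Its brightest probe set was at 5.09 and 5.30 in the expansion and extinction arrays of tumor A and at 5.34 and 5.37 in those of tumor B, below the median of all probe sets, 5.78. Expansion and extinction overlapped, with -0.21 in tumor A, -0.03 in tumor B and a difference of -0.12 ± 0.17 (SE, n = 2 per class; adjusted p = 1 by limma) over both. A second probe set lay between 4.65 and 4.91. The third, at 5.86 in extinction A against 4.21, 4.77 and 4.19 in expansion A, expansion B and extinction B, differed by -1.65 in tumor A against 0.58 in tumor B. With the mean of the 3 probe sets the differences for Hgf became -0.63 and 0.17, so the sign in tumor B depended on the choice of probe set. For the brightest probe set that difference was also above 0 after a further quantile normalization (0.014) and after subtracting each array's median (0.026). Fibroblast markers, from cells that commonly make HGF, were lower in expansion in tumor A (median -1.095) and higher in tumor B (1.08).

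Both proteases that activate HGF varied little. Hgfac, made mainly by liver, was at 4.09, 4.34, 4.41 and 4.20 in expansion A, extinction A, expansion B and extinction B. Both classes overlapped, with a difference of -0.02 ± 0.19 (SE, n = 2 per class; adjusted p = 1 by limma). The membrane protease St14 was at 5.84, 5.60, 6.16 and 5.91 in the same order. Expansion was the higher by 0.24 in tumor A against 0.25 in tumor B, which made St14 the member whose clone differences in the tumors were closest to each other. The difference of 0.25 ± 0.22 (SE, n = 2 per class; adjusted p = 1 by limma) was about the size of its standard error, and the classes overlapped. It was 0.089 without expansion B and 0.40 when expansion A was left out. St14 was also higher in tumor B than in tumor A by 0.32 in expansion and 0.31 in extinction, a difference of 0.31 ± 0.19 (SE, n = 2 per tumor; adjusted p = 1 by limma) that was 0.19 without expansion B.

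Gab1, which links MET to its effectors, was at 9.51 and 9.82 in the expansion and extinction arrays of tumor A and at 9.31 and 8.95 in those of tumor B. It differed by -0.31 in tumor A against 0.36 in tumor B. All 12 endothelial markers, all 8 fibroblast markers and 4 of 7 pericyte markers had these signs too. The mean over both tumors was 0.03 ± 0.37 (SE, n = 2 per class; adjusted p = 1 by limma). Both tumor B arrays lay below both tumor A arrays, by 0.20 in expansion and 0.87 in extinction, with a difference of -0.53 ± 0.23 (SE, n = 2 per tumor; adjusted p = 1 by limma). The second probe set, between 8.16 and 9.04, had the same signs within the tumors (-0.56 and 0.52). The third, between 3.97 and 4.53, had the opposite ones (0.36 and -0.17). Neither of these other probe sets was lower on both tumor B arrays than on both tumor A arrays. The second overlapped, at 8.48 and 9.04 in tumor A and at 8.67 and 8.16 in tumor B, with the lower mean in tumor B. The third was higher in tumor B, at 4.36 and 4.53 against 4.33 and 3.97. With the mean of all 3 probe sets, tumor B minus tumor A was -0.19.

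None of the 7 members passed limma's test between the clone classes or between the tumors at an adjusted p of 0.05, and none had an unadjusted p under 0.05. That was true of all genes after adjustment: 0 of 45037 probe sets (0.0%) were called for either comparison, while 469 had an unadjusted p under 0.05 between the classes and 648 between the tumors. An exact two-sided permutation test of 2 arrays against 2 cannot give a p below 0.333. Expansion lay wholly above or wholly below extinction for 0 of the 7 members, against 20.7% of all genes. For the tumors this held for 3 members (Hgf, Gab1 and St14) by their brightest probe sets, against 23.2% of all genes. The other probe sets of Hgf and Gab1 did not separate the tumors in the same direction.

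Within tumor A, 2 members (Met and Spint1) were at least 2-fold higher in expansion, against 5.89% of all genes, and 1 (Spint2) at least 2-fold lower, against 10.4%. Within tumor B, Spint2 was at least 2-fold higher, against 9.68%, and Met at least 2-fold lower, against 4.77%. Met was thus 1 of the 3.14% of genes up in tumor A and down in tumor B, and Spint2 1 of the 5.65% with the reverse. A 2-fold difference in 1 direction in both tumors was seen for 0 members and for 0.0879% of all genes. Of the 7, 5 had opposite signs in the tumors, Hgf and St14 being the others, and 68.1% of all genes had opposite signs too. After a further quantile normalization or subtraction of each array's median, Hgf in tumor B lay just above 0 (0.014 and 0.026). Hgf then joined those 5, which made 6, while the 68.1% is for the values without such scaling. The members' median difference was -0.21 in tumor A against 0.21 in tumor B, where that of all genes was -0.036 and 0.067.

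**Figure D3:**
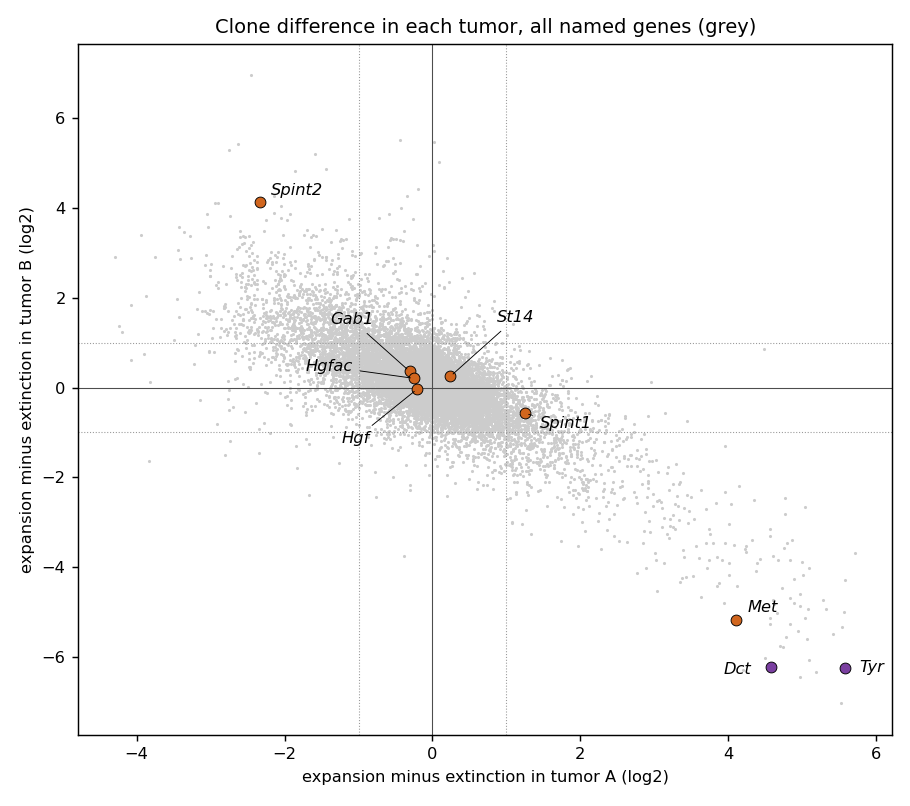
Expansion minus extinction on the log2 scale in tumor A (horizontal) and tumor B (vertical) for 18193 genes (grey), the 7 HGF and MET genes (orange) and Dct and Tyr (purple); dotted lines mark 2-fold. Met lies at 4.11 and -5.17 beside Dct and Tyr, Spint2 lies in the opposite corner at -2.33 and 4.14, and the other 5 members lie within 1.25 of 0 on both axes.

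Genes around the axis were followed in 5 lists, of which 63 genes were analysed here. None of the 63 passed limma's test after adjustment in either direction, for the classes or the tumors, and 1 had an unadjusted p under 0.05 in each (Pik3cb and Shc1). Of all 45037 probe sets, 469 and 648 had such a p, so 1 of 63 is near the share over all probe sets. Their median difference was -0.073 in tumor A against 0.18 in tumor B. In opposite directions by at least 2-fold, 5 were up in tumor A and down in tumor B (Mitf, Pax3, Sox10, Plxnb2 and Ptprj) and 4 the reverse (Itga6, Nrp1, Pik3r1 and Plau). Over all genes 3.14% and 5.65% did so, and 4 of 63 is near the latter share. The 5 of 63 were not tested against the former share. Mitf and Sox10, among those 5, are also on the melanoma marker list, and the lists were chosen with earlier results of these data known. A 2-fold difference in 1 direction in both tumors was seen for 0 of the 63.

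Among 6 transcription factors reported to act on Met, the melanocyte regulators Pax3, Sox10 and Mitf stood high on the arrays where Met did, as the melanoma markers also did. Pax3 was at 11.86 and 7.07 in the expansion and extinction arrays of tumor A and at 5.87 and 11.43 in those of tumor B, so that expansion minus extinction was 4.79 and -5.56. Sox10 differed by 4.35 and -2.51 and Mitf by 3.45 and -2.39. Sox10 and Mitf are also on the melanoma marker list. The broadly expressed factors Ets1, Sp1 and Hif1a ranged over no more than 0.42.

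Among 11 relatives and co-receptors of MET, the median difference was -0.41 in tumor A against 0.48 in tumor B. Plxnb2, a semaphorin receptor of the same structural superfamily, was at 10.72, 9.06, 8.495 and 10.10 in expansion A, extinction A, expansion B and extinction B and so stood high where Met did. The integrin subunit Itga6 differed by -1.76 in tumor A against 1.28 in tumor B and the VEGF co-receptor Nrp1 by -1.39 and 1.503. Endothelial and fibroblast markers both ran in this direction. Decorin (Dcn), a matrix proteoglycan that can bind MET and is also on the fibroblast list, differed by -0.87 and 1.02. The MET paralogue Mst1r (RON) was at 5.32, 5.95, 6.71 and 6.22, higher on both arrays of tumor B than on either of tumor A, by 0.83 ± 0.33 (SE, n = 2 per tumor; adjusted p = 1 by limma). Such a separation of the tumors, in either direction, held for 23.2% of all genes.

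Of 9 further proteases and inhibitors that act on HGF or its activators, 7 had a mean below the median of all probe sets. The exceptions were the plasminogen activators. Plat (tissue type) was at 10.26, 11.86, 12.05 and 11.31 in expansion A, extinction A, expansion B and extinction B, and Plau (urokinase) at 5.17, 7.05, 6.65 and 5.26. Both were lowest in expansion A. Within the tumors Plat differed by -1.597 and 0.74 and Plau by -1.88 and 1.39. The next by range were hepsin (Hpn, 0.85) and plasma kallikrein (Klkb1, 0.44).

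For 23 adaptors and effectors, the median difference was -0.073 in tumor A against 0.27 in tumor B. The PI3K regulatory subunit Pik3r1 ranged most, with -1.595 and 1.47. Pik3cb, a catalytic subunit, was at 5.94 and 5.26 in the expansion and extinction arrays of tumor A and at 6.70 and 5.34 in those of tumor B. Both expansion arrays thus lay above both extinction arrays, and 20.7% of all genes had the classes apart in 1 direction or the other. For Pik3cb the following values apply. Its difference of 1.02 ± 0.32 (SE, n = 2 per class) had an adjusted p of 1 by limma. The exchange factor Dock1 differed by -0.57 and 1.12 and the adaptor Crk by -1.21 and 0.99. The adaptor Shc1 was lower in tumor B, at 7.56 and 7.38 against 8.23 and 8.30, by 0.80 ± 0.16 (SE, n = 2 per tumor; adjusted p = 1 by limma). Over all genes, 23.2% had the tumors apart in 1 direction or the other.

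Among 14 genes of turnover and negative regulation, the median was -0.34 in tumor A against 0.068 in tumor B. The receptor phosphatase Ptprj, which can dephosphorylate MET, ranged most, at 7.01 and 5.05 in the expansion and extinction arrays of tumor A and at 5.19 and 8.73 in those of tumor B. It was high where Met was high, with differences of 1.97 and -3.54. The ERK feedback inhibitor Spry4 differed by -2.11 and 0.97, the ErbB and MET feedback inhibitor Errfi1 by -1.16 and 0.88, and the ubiquitin ligase Cblb by -0.76 and 0.067.

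**Figure D4:**
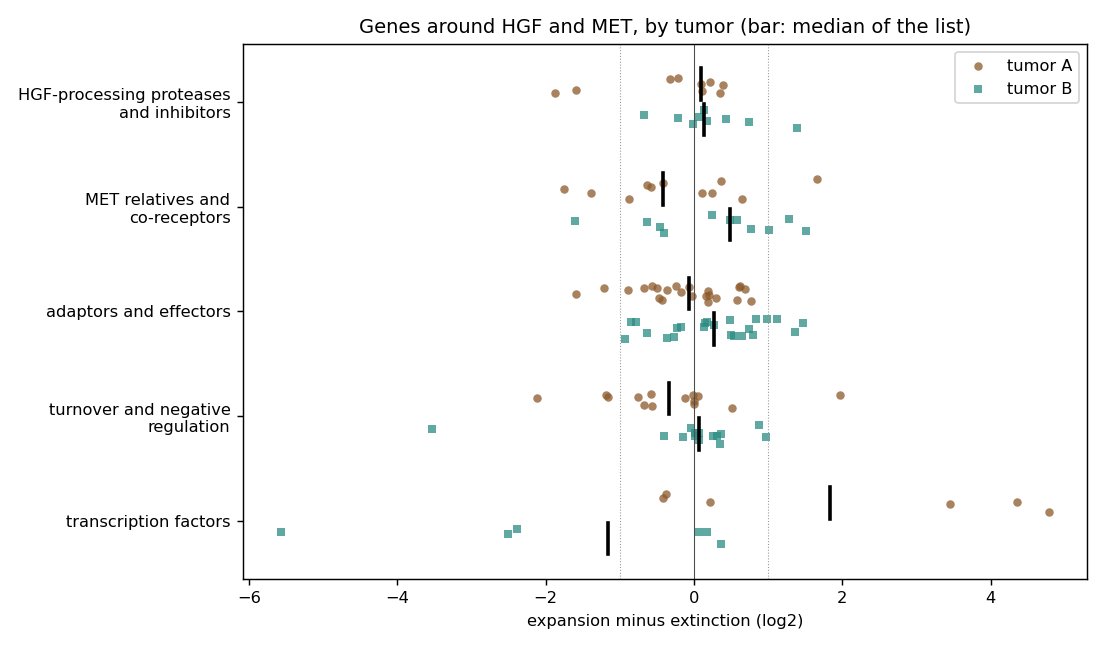
Expansion minus extinction on the log2 scale for each measured gene of the 5 lists around HGF and MET, in tumor A (brown circles) and tumor B (green squares); black bars are list medians and dotted lines mark 2-fold. Transcription factors spread widest, with Pax3 at 4.79 in tumor A against -5.56 in tumor B, while most adaptors and effectors lie inside the dotted lines.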

How the data were processed

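The data were 4 Affymetrix Mouse430_2 arrays. Per the labels' protocols, TRIzol-extracted RNA was amplified in 2 rounds, which can favour transcript ends. The submitters' processing notes name affy and RMA, and the authors deposited log2 values. The versions used are not given in the sources used here. Since RMA normalizes quantiles across arrays, each value depends on all 4. Array medians lay between 5.73 and 5.83. Arrays carry no depth.

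Of 45101 probe sets, 64 controls were set aside. Of the 45037 tested, 34945 had 1 symbol, updated through gene IDs to RefSeq for GRCm38.p6 (0 changed), 932 had several and 9160 were not listed in the platform annotation. The members and lists were chosen with earlier results of these data known.

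Clone classes and tumors came from the labels. Each contrast was fitted with limma 3.58.1 in R 4.3.3 (lmFit, eBayes, two-sided; 2 residual degrees of freedom, prior 1.45 for classes and 1.49 for tumors), with Benjamini-Hochberg adjustment over all tested probe sets and a threshold of 0.05. The p-values measure only the spread between these arrays. Within a tumor, and for the clone difference in tumor A minus that in tumor B, values were given without a test and counted at 2-fold. Same-numbered arrays came from 1 tumor, which pairs them by the labels, although their deviations from class means correlated at -0.661 over genes. Named were all members, the up to 4 genes of each list with the widest range, and, for members ranging over at least 1, the 5 genes at the smallest Euclidean distance between centred levels. Mst1r, Shc1, Ets1 and Sp1 lie outside this rule and were chosen with their values in view. The same holds for the marker genes Pecam1, Cdh5, Ptprc, Csf1r, Cd53, Laptm5, Itgam, Cd3e, Coro1a, Adipoq, Lep and Fabp4. The fit was tested on simulated data. The alternatives were tumor or class as a term, a filter at the median level, quantile normalization again, median subtraction, trended robust eBayes, 1.5-fold as the threshold, the mean over probe sets, and the fit without each array. Some listed genes are not reported here.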

Additional observations from a re-analysis of the deposited data

Results flagged for a closer look

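Met, Spint2, Dct and Tyr were singled out because expansion and extinction differed at least 2-fold in opposite directions in the 2 tumors. The difference in tumor A minus that in tumor B was 9.29 for Met, -6.47 for Spint2, 10.79 for Dct and 11.83 for Tyr on the log2 scale. This was not tested, since each class had 1 array in a tumor. The melanoma marker mean was 12.49, 7.76, 6.65 and 11.55 and the endothelial marker mean 7.98, 10.42, 10.85 and 8.99 in expansion A, extinction A, expansion B and extinction B, and their part in these values was not tested.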

How the results depend on the processing

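The number of probe sets called stayed at 0 between clone classes and between tumors under every alternative run, including the replicate block (the tumor as a term for the classes, the clone class as a term for the tumors). With that block the difference for Met was -0.53 ± 3.07 (SE). A crossed pairing of the arrays, chosen after seeing the data, also called 0 probe sets. The deposited values alone were used, so the RMA step itself was not varied. At 1.5-fold in place of 2-fold, 5584 genes differed within tumor A, 5311 within tumor B and 3309 in opposite directions in the 2. With all 3 probe sets averaged, Hgf was -0.21 in tumor B minus tumor A, against 0.16 with its brightest.

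Leaving out each array in turn, the clone difference turned its sign for 6 of the 7 members, all but St14, and the tumor difference for 4; the adjusted p was 1 by limma each time. The lowest and highest clone differences were -3.23 and 2.17 for Met, -0.25 and 0.0045 for Hgf, -0.41 and 0.46 for Gab1, -0.23 and 0.91 for Spint1, -1.10 and 2.91 for Spint2, -0.18 and 0.14 for Hgfac, -4.19 and 2.55 for Dct and -4.12 and 3.44 for Tyr. The tumor differences ran from -3.35 to 1.82 for Met, -0.84 to 0.41 for Spint1, -1.29 to 2.85 for Spint2, -0.031 to 0.22 for Hgfac, -4.46 to 1.76 for Dct and -4.77 to 1.49 for Tyr. Those that kept their sign ran from 0.089 to 0.40 for the clone difference of St14, and for the tumor difference from 0.19 to 0.44 for St14, -0.71 to -0.35 for Gab1 and 0.059 to 0.27 for Hgf (lowest without expansion A). Only 4 of the members (Met, Gab1, St14 and Spint2) passed the filter at the median level.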
